A study of Mus musculus with 46 samples.

Results

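The genes described here are 9 members of the transforming growth factor beta (TGF-beta) pathway, taken by symbol from the expression tables of 3 mouse experiments: the ligands Tgfb1 and Tgfb2, the receptors Tgfbr1 and Tgfbr2, the signal-carrying Smads Smad2, Smad3 and Smad4, and the inhibitors Smad7 and Ski. The subventricular zone (SVZ) table, with 15695 genes, lists 8 of the 9, and Tgfb1 in the SVZ was not analysed here. Both tables of sorted cells, with 15285 and 19930 genes, list all 9. Of the listed members, 8 passed the expression limit in each table (at least 1 FPKM in at least 3 libraries), and in both tables of sorted cells Tgfb2 was the member below it. FPKM scales the reads of a gene to its length and to the total of its library.

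All mice were male C57BL/6, and microglia were removed with PLX3397, an inhibitor of the CSF1 receptor on which microglia depend, given in chow. In the SVZ experiment, tissue from the walls of the lateral ventricle was micro-dissected from control mice, from mice after 14 day PLX3397 and from mice returned to normal chow for a 5 day recovery (n = 5 each). In the LPS experiment, CD11b+CD45int cells were sorted from whole hemispheres of control mice (control microglia) and of mice given 14 days of PLX3397 and 28 days of recovery (WM repopulating cells, where WM is short for white matter). The cells were taken without LPS (0 hr; n = 3 control and 4 WM) or 6 hr (n = 5 and 4) or 24 hr (n = 4 and 4) after 0.33 mg/kg of LPS, a bacterial lipopolysaccharide. In the GLOBAL experiment, the same gate was used on control mice (n = 4) and on mice given 7 days of PLX3397 and 28 days of recovery (n = 3, GLOBAL repopulated cells, which arise throughout the brain). The legends give the age of the mice with sorted cells as 2 months. The gate takes CD11b+ cells with intermediate CD45 and does not of itself separate microglia from every other myeloid cell.

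TGF-beta ligands are secreted in a latent form and, once released, bind TGFBR2, which recruits and phosphorylates TGFBR1. The active TGFBR1 kinase phosphorylates SMAD2 and SMAD3, which enter the nucleus with SMAD4 and control target genes. SMAD7 is made in response to the signal and blocks the receptor, and SKI holds the Smad complex in a repressed state. In the brain, microglia need TGF-beta signalling to keep their mature expression pattern, and Tgfb1 and both receptors are typically expressed by microglia.

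Promoter sequences are shown for the receptors, whose transcripts both fell after LPS, and for the ligand Tgfb1, with capitals marking matches to 3 short motifs searched on both strands. The windows come from RefSeq (GRCm38.p6, the assembly of mm10, which the submitters' processing notes name), run 5′ to 3′ on the strand of the gene and span 250 bases before to 50 bases after a start of transcription. The Tgfbr1 window lies on the plus strand at chr4:47352972-47353271, the Tgfbr2 window on the minus strand at chr9:116175314-116175613 and the Tgfb1 window on the plus strand at chr7:25686752-25687051, each over the start of its gene, so the last 50 bases are the first transcribed ones.
Tgfbr1: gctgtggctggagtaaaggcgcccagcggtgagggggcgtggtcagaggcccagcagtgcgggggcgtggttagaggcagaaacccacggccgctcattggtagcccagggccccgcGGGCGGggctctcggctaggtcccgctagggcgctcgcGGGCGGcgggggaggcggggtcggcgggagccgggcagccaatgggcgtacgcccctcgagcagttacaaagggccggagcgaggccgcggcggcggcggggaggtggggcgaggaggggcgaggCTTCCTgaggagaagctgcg
Tgfbr2: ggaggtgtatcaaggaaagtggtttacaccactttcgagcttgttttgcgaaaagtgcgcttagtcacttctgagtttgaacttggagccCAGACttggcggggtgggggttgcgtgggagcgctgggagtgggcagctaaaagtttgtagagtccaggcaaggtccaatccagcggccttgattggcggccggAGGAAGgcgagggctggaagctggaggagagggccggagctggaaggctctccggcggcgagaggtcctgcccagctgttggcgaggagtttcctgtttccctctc
Tgfb1: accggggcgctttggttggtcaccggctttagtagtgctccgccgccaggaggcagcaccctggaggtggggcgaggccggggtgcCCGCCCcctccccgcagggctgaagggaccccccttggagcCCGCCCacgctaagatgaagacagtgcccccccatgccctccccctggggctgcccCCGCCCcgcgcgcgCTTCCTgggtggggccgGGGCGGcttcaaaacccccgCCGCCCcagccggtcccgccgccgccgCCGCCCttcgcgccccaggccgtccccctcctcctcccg

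The first motif was CAGAC, the letters of a box that SMAD3 and SMAD4 bind, which reads GTCTG on the opposite strand. The second was GGGCGG, the GC box of Sp1-like factors, read as CCGCCC on the opposite strand. The last was AGGAAG, letters found in sites of the myeloid factor PU.1, read as CTTCCT on the opposite strand. No matches of different motifs overlapped in these windows. The Tgfbr2 window held CAGAC 160 bases before the start and AGGAAG 56 bases before it, and no GC box. The Tgfbr1 window held 2 GC boxes, 133 and 95 bases before the start, and CTTCCT from base 31 of the transcript, and not CAGAC. The Tgfb1 window held 6 GC boxes and 1 match to CTTCCT. Among all 32817 promoter windows of the same length, 49.6% held CAGAC, 35.6% the GC box and 35.4% the PU.1 letters on either strand, so each of these matches is common. A match is a string of letters and does not show that a factor binds there. RefSeq lists a further start of Tgfbr1, at chr4:47385966-47386265, whose window held CAGAC 1 time, AGGAAG 2 times and no GC box. The tables give a single value per gene and do not separate the starts.

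The depth recovered from the steps of the FPKM values was 4.57 to 10.5 M reads per library in the SVZ experiment, 4.95 to 11 M in the LPS experiment and 2.06 to 5.42 M in the GLOBAL experiment. Markers of microglia summed to 208 to 278 FPKM in control SVZ and to 7077 FPKM or more in every library of sorted cells, with all 10 of 10 markers listed and none at 0 in any group. The sorted cells also carried neutrophil markers, with sums of 363 to 14566 FPKM in the LPS experiment and 1024 to 18384 FPKM in the GLOBAL experiment (5 of 5 markers listed). Monocyte markers (4 of 4 listed) summed to 74 to 214 FPKM at 0 hr and 897 to 2825 FPKM at 6 hr. Control SVZ replicate 1 stands apart, since its 4 choroid plexus markers summed to 21303 FPKM against 23.3 to 125 FPKM in the other 4 controls. Control replicate 2 at 6 hr LPS held the highest or lowest value of its group in several members. None of its values was flagged by Dixon's criterion, described at the end. Results that rest on this library or on control SVZ replicate 1 are given with and without it.

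In the SVZ, Tgfbr1 fell once microglia had been removed and was still low after 5 days of recovery. No library of either treated group reached the control values of Tgfbr1 or Tgfbr2, whereas the Smads and Ski overlapped with control. Groups were free of overlap in 2.77% of all 14151 tested genes after PLX3397 and in 3.1% after recovery, beside 2 of the 8 members in each. Both treated groups are compared with the same controls. Tgfbr1, the kinase receptor that phosphorylates the Smads, was at 2.36, 2.86, 2.97, 2.47 and 3.08 FPKM in the 5 control libraries. It was at 1.24, 0.882, 0.875, 1.33 and 1.38 FPKM after 14 day PLX3397 and at 1.05, 1.09, 1.19, 1.51 and 0.984 FPKM after 5 day recovery. Every library of both treated groups lay below every control library, and the treated groups overlapped each other.
The means of Tgfbr1 were 2.75 ± 0.316 FPKM in controls, 1.14 ± 0.244 FPKM after PLX3397 and 1.17 ± 0.209 FPKM after recovery (SD, n = 5 each). These means are 41.5% and 42.5% of the control mean. Tgfbr1 fell by 0.81 on the log2(FPKM + 1) scale after PLX3397 (SE 0.10, limma adjusted p = 0.000107) and by 0.79 after recovery (SE 0.10, limma adjusted p = 0.000175), a scale that understates the change of a gene at so few FPKM. Without control replicate 1 the differences were -0.85 and -0.83, and both passed. Tgfbr1 was the only member of the 8 tested to pass in either comparison. Of all 14151 tested genes, 1.21% were lower and 0.0565% higher after PLX3397, and 1.09% were lower and 0.184% higher after recovery. Markers of oligodendrocyte precursors (4 of 4 listed) moved the same way, at sums of 20.3 to 28.8 FPKM in controls, 10.1 to 16.8 FPKM after PLX3397 and 14.2 to 21.1 FPKM after recovery, as did those of border-associated macrophages (4 of 5 listed), at 3.48 to 7.39, 1.18 to 2.45 and 1.22 to 2.97 FPKM. After recovery, astrocyte markers (6 of 6 listed) were higher, at 1664 to 2590 FPKM against 1173 to 1613 FPKM in controls, and so were erythrocyte markers (4 of 5 listed), at 91.3 to 336 against 32.4 to 79.3 FPKM, with 3 of 4 tested called higher. The part of these cells in the receptor values was not tested.

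Tgfbr2, the receptor that binds the ligand first, showed the same order of groups with wider spread. Its controls were at 4.64, 3.61, 3.41, 3.17 and 3.45 FPKM. The PLX3397 libraries were at 1.98, 1.81, 2.11, 2.71 and 2.05 FPKM and the recovery libraries at 2.44, 3.07, 2.40, 1.49 and 1.30 FPKM. No treated library reached the lowest control, but the log2 differences of -0.57 and -0.59 (SE 0.15 each) missed the threshold, with limma adjusted p of 0.0898 and 0.0628. With only the control and PLX3397 groups in the fit, Tgfbr2 passed (limma adjusted p = 0.0176). It also passed for recovery without recovery replicate 2 or 3 (limma adjusted p = 0.0159 and 0.0488), whereas without control replicate 1 the differences were -0.50 and -0.52 with adjusted p of 0.235 and 0.152.

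**Figure D1:**
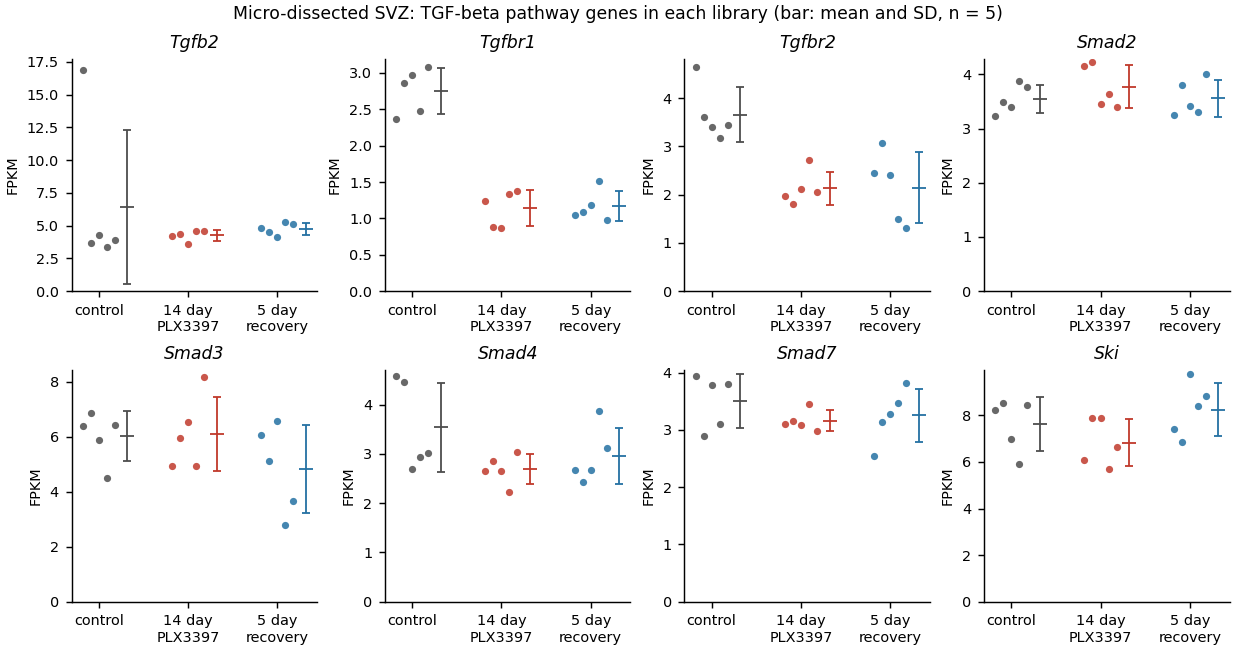
FPKM (vertical axes, from 0) of the 8 listed members in each SVZ library, with points for single libraries grouped by treatment and a bar for the mean and SD (n = 5 each). Tgfbr1 and Tgfbr2 lie lower in both treated groups than in every control, and a single control library holds Tgfb2 at 16.9 FPKM.

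Most microglial genes in the same libraries had larger log2 changes than Tgfbr1. Among 13 genes that depend on TGF-beta in microglia, 11 were lower after PLX3397 and 11 after recovery, with none higher and median log2 differences of -2.89 and -2.74 beside 0.01 and -0.01 over all tested genes. Csf1r, which encodes the CSF1 receptor, fell by 5.09 on the log2 scale after PLX3397. P2ry12, a purine receptor of resting microglia, fell by 4.06 after recovery. These 13 genes stood at a median of 1.7% of control after PLX3397 and 4.75% after recovery, with single genes from 0.223% to 87.5% and from 1.95% to 86.4%, against the 41.5% and 42.5% of Tgfbr1. In whole tissue, a loss of the cells that hold a transcript and a loss of the transcript within cells cannot be told apart. Between 14 day PLX3397 and 5 day recovery, 4 of the 13 microglial genes rose, among them Csf1r by 1.09 and Tmem119, a microglial membrane protein, by 1.03 on the log2 scale, and no member of the 8 passed. Tgfbr1 differed by 0.02 between these groups (95% interval -0.20 to 0.24), against a background of 0.29% of genes higher and 0.0353% lower.

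Tgfb2, a ligand made by several neural cell types, was at 16.9 FPKM in control replicate 1 and at 3.66, 4.27, 3.4 and 3.87 FPKM in the other controls. The PLX3397 libraries were at 4.19, 4.39, 3.6, 4.56 and 4.61 FPKM and the recovery libraries at 4.80, 4.52, 4.15, 5.25 and 5.10 FPKM. Its log2 difference was -0.25 after PLX3397 and -0.12 after recovery with all libraries, and 0.13 and 0.26 without control replicate 1. Neither sign passed the test, and without that library the adjusted p for recovery was 0.251 by limma. The high Tgfb2 value sits in the library with the choroid plexus transcripts, whose leading marker Ttr reached 20946 FPKM there, and the part of that tissue in it was not tested.

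The signal-carrying Smads and the inhibitors did not pass in any SVZ comparison. The means of Smad2 were 3.55 ± 0.261, 3.77 ± 0.391 and 3.55 ± 0.331 FPKM in control, PLX3397 and recovery (SD, n = 5 each), and its 95% interval after PLX3397 ran from -0.11 to 0.25 on the log2 scale. Smad3 ranged from 4.51 to 6.87 FPKM in controls and from 2.78 to 6.58 FPKM after recovery, where 2 libraries, at 2.78 and 3.66 FPKM, were lower than all others. Smad4, the partner shared by all receptor-driven Smads, was at 4.59 and 4.45 FPKM in control replicates 1 and 2 and at 2.70 to 3.02 FPKM in the other controls, and its log2 difference of -0.28 after PLX3397 had an adjusted p of 0.804 by limma. Smad7 lay between 2.55 and 3.94 FPKM over all 15 libraries. Ski was the highest of the 8, with a median of 7.87 FPKM, while Tgfbr1 was the lowest at 1.33 FPKM, and each member's range over the 15 libraries overlapped that of the next in order. None of the other pathway lists had a gene that passed in the SVZ: latency and activation of the ligand (10 tested), co-receptors and related receptors (12), other Smads (2), regulators of receptors and Smads (19), kinases of the Smad-independent branch (6), Smad partner factors (4) and genes induced by TGF-beta in many cells (15) held no call in any of the 3 comparisons.

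In the sorted cells the receptors had the highest levels of the members. Over the 24 libraries of the LPS experiment, the medians were 61.5 FPKM for Tgfbr1, 56.5 for Tgfbr2, 42 for Ski, 20.3 for Smad7, 10.8 for Smad3, 6.41 for Smad4, 6.39 for Smad2 and 5.24 for Tgfb1. The ranges of neighbours in this order overlapped over the 24 libraries, although in control microglia at 0 hr all 3 Tgfbr1 values were above all 3 Tgfbr2 values. Tgfb2 was listed at 0.0498 to 1.23 FPKM, which rests on 2 to 37 reads per library. The GLOBAL experiment, normalized separately, gave medians of 146 FPKM for Tgfbr1, 113 for Tgfbr2, 54.3 for Tgfb1 and 53.2 for Ski, and Smad2, at 6.41 FPKM, was the lowest of the 8 tested. Tgfb1 thus lay at 51.7 to 88.4 FPKM in the GLOBAL table and at 2.46 to 8.39 FPKM in the LPS table, on 247 to 899 and 35 to 114 reads, and Smad3 at 27.1 to 34.5 and 2.49 to 18.3 FPKM. Values of separately normalized tables cannot be compared by a test. In controls without LPS alone, Tgfb1 was at 52.6 to 88.4 FPKM in the GLOBAL table and 4.12 to 6.99 FPKM in the LPS table.

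Unchallenged WM repopulating cells were compared with control microglia to see what remains different 28 days after the inhibitor was withdrawn. No member passed at 0 hr, although Tgfbr2 and Smad3 were separated without overlap. Tgfbr2 was at 58.6, 57.5 and 65.8 FPKM in control microglia and at 85.3, 74.3, 71.9 and 70.2 FPKM in WM repopulating cells. All 4 WM libraries were above all 3 controls, with a log2 difference of 0.31 (SE 0.15, 95% interval 0.00 to 0.62, limma adjusted p = 0.419).
Smad3 was at 14.8, 18.3 and 16.4 FPKM in control microglia and at 11.4, 13, 10.5 and 13.2 FPKM in WM repopulating cells. All WM libraries were below the controls, with a log2 difference of -0.42 (SE 0.30, limma adjusted p = 0.616). Groups were free of overlap in 13.6% of all 12684 tested genes, beside 2 of the 8 members, and 0.717% of genes were called higher and 0.497% lower. Tgfbr1 was at 101, 108 and 83.7 FPKM in controls and at 104, 81.2, 88.3 and 82.5 FPKM in WM cells, and the groups overlapped. Smad7, at 21.4, 21.9 and 28.9 FPKM in controls and 23.5 to 30.1 FPKM in WM cells, overlapped as well. Markers of border-associated macrophages (5 of 5 listed) summed to 31.7 to 99.3 FPKM in control microglia and 17.8 to 27.6 FPKM in WM cells at 0 hr, and those of endothelial cells (3 of 5 listed) to 8.9 to 13.3 and 4.51 to 7 FPKM. Markers of T, B and NK cells (5 of 6 listed) went the other way, at 8.06 to 29.9 FPKM in control microglia and 30.7 to 55.2 FPKM in WM cells, as did those of the choroid plexus (4 of 4 listed), at 73.9 to 217 and 280 to 715 FPKM. Ttr alone was at 72.5 to 211 and 273 to 703 FPKM, while Folr1 of the same list overlapped, at 0 to 6.13 and 2.48 to 10.1 FPKM. In the LPS experiment, the choroid plexus sums are thus nearly all Ttr. Astrocyte markers (6 of 6 listed) were at 55.6 to 61.6 and 37.5 to 52.2 FPKM and oligodendrocyte markers (5 of 6 listed) at 31.7 to 39.5 and 28.4 to 31.3 FPKM, and the part of these cells in the Tgfbr2 and Smad3 values was not tested. No gene of the 8 pathway lists passed at 0 hr, in a fit where the 13 TGF-beta-dependent microglial genes had a median log2 difference of -0.10 beside 0.01 for all genes.

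Both receptors fell within 6 hr of LPS in both kinds of cells. Monocyte markers were higher in every 6 hr library than in any at 0 hr, as given above. Markers of border-associated macrophages (5 of 5 listed) were lower, at sums of 31.7 to 99.3 FPKM at 0 hr and 10.4 to 22.3 FPKM at 6 hr in control microglia and 17.8 to 27.6 and 7.65 to 10.8 FPKM in WM cells. Oligodendrocyte markers (5 of 6 listed) in control microglia were at 31.7 to 39.5 and 19.1 to 29.1 FPKM, and those of oligodendrocyte precursors (3 of 4 listed) in WM cells at 0.295 to 0.482 and 1.48 to 4.28 FPKM. Of the 5 neutrophil markers, 1 fell in control microglia and 3 fell in WM cells at 6 hr, although the sums overlapped, at 1997 to 7506 FPKM at 0 hr and 363 to 6932 FPKM at 6 hr in WM cells. The part of these cells in the 6 hr values was not tested. In control microglia at 6 hr, 4 of the 8 tested members fell and none rose, in a comparison where 21.1% of all genes fell and 21.4% rose. In WM repopulating cells, 3 of 8 fell and none rose, where 19.5% of all genes fell and 19.3% rose. As shares, 50% and 37.5% of the members were called, beside 42.5% and 38.8% of all genes, so the shares of the members are near the background. The median log2 change of the members was -0.47 in control microglia and -0.34 in WM cells, beside 0.01 and -0.01 over all genes. Comparisons of 6 hr and of 24 hr with 0 hr share the 0 hr libraries, so their values are given side by side. For comparisons between times, the share of all genes whose groups did not overlap was not computed. Separation of a member's libraries there has no background beside it.

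Tgfbr1 was at 61.9, 54.2, 61.0, 44.3 and 59.3 FPKM in control microglia at 6 hr and at 52.2, 46.2, 53.3 and 64.3 FPKM in WM cells at 6 hr. All 9 libraries were below all 7 libraries at 0 hr, the lowest of which stood at 81.2 FPKM. Tgfbr1 fell by 0.79 on the log2 scale in control microglia (SE 0.16, limma adjusted p = 0.000327) and by 0.71 in WM cells (SE 0.15, limma adjusted p = 0.000743).
Tgfbr2 was at 48.6, 50.8, 39.9, 38.8 and 41.0 FPKM in control microglia at 6 hr, all below the 0 hr controls. In WM cells at 6 hr it was at 42.9, 66.4, 52.5 and 45.2 FPKM, all below the lowest 0 hr value of 70.2 FPKM. It fell by 0.47 in control microglia (SE 0.14, limma adjusted p = 0.0112) and by 0.55 in WM cells (SE 0.14, limma adjusted p = 0.00283). Without control replicate 3 at 0 hr, the fall of Tgfbr2 in control microglia was 0.41 with an adjusted p of 0.0581 by limma.

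**Figure D2:**
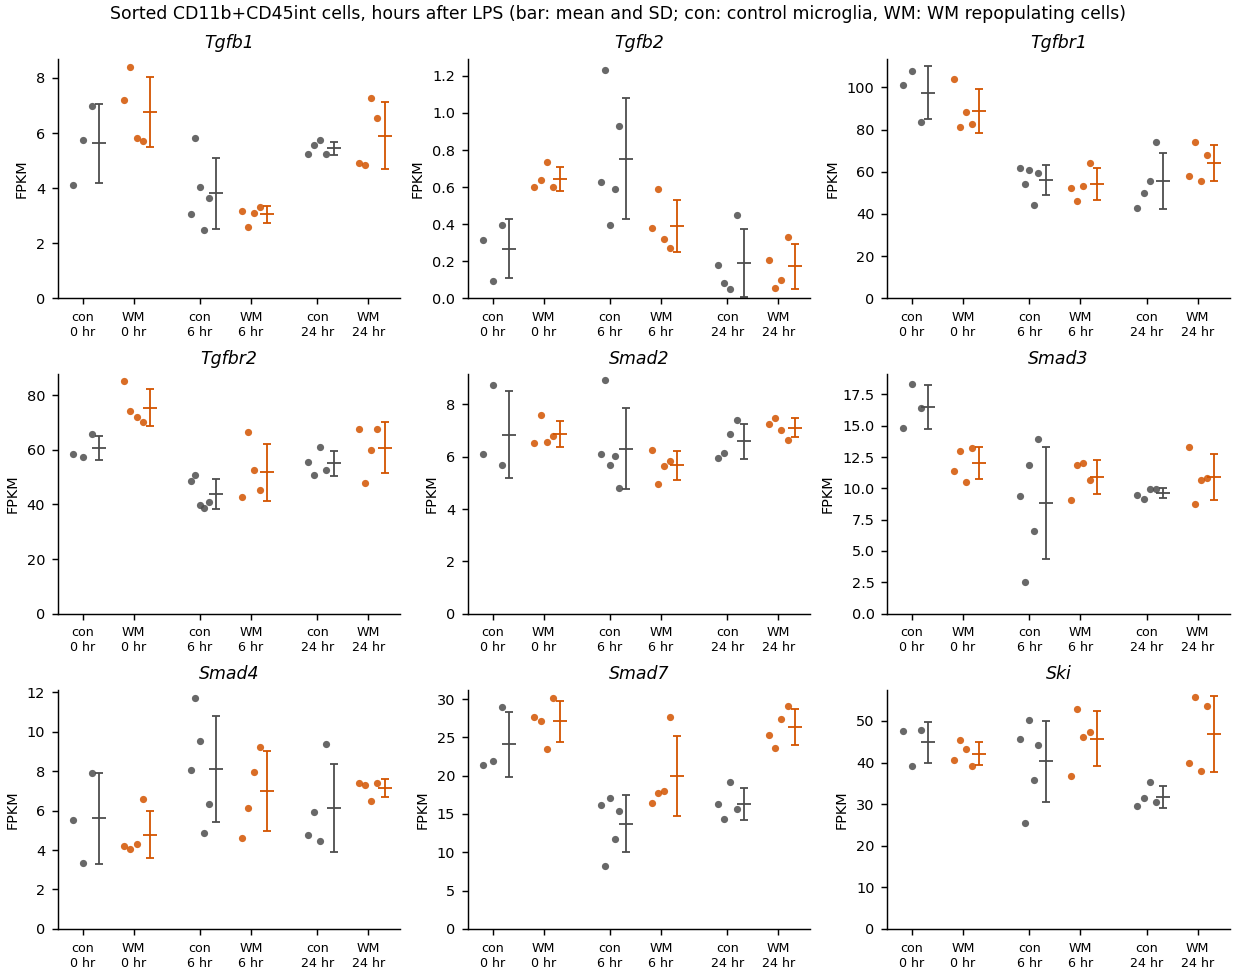
FPKM (vertical axes, from 0) of the 9 members in each library of sorted cells, with control microglia (con, grey) and WM repopulating cells (WM, orange) at 0, 6 and 24 hr after LPS and bars for mean and SD (n = 3 to 5). Tgfbr1 is lower in all libraries after LPS than in any at 0 hr, and Smad7 at 24 hr is higher in WM cells than in controls.

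Tgfb1, the more abundant of the ligands measured here, was at 3.18, 2.58, 3.10 and 3.31 FPKM in WM cells at 6 hr, against 7.19, 8.39, 5.83 and 5.70 FPKM at 0 hr. The groups did not overlap, and Tgfb1 fell by 0.93 on the log2 scale (SE 0.19, limma adjusted p = 0.000381). In control microglia, it was at 4.12, 5.76 and 6.99 FPKM at 0 hr and at 3.06, 5.83, 4.05, 2.46 and 3.65 FPKM at 6 hr, with a log2 difference of -0.48 that missed the threshold (limma adjusted p = 0.0533). The value of 5.83 FPKM, the highest at 6 hr, came from replicate 2. Without that library the difference was -0.61 with an adjusted p of 0.01 by limma. Without control replicate 1 at 0 hr, it was -0.65 with an adjusted p of 0.0212. With all libraries and no variance trend, Tgfb1 passed in control microglia as well (limma adjusted p = 0.0464). The test of the difference between the responses of the 2 kinds of cells gave -0.46 (95% interval -1.02 to 0.10, limma adjusted p = 0.749). The fall past the threshold in WM cells and not in control microglia was therefore not shown to differ between them.

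Smad3 and Smad7 fell at 6 hr in control microglia. Smad3 was at 9.36, 2.49, 11.9, 6.60 and 13.9 FPKM, all below the 0 hr controls, and its log2 change was -0.99 (SE 0.28, limma adjusted p = 0.00692). Replicate 2 held the value of 2.49 FPKM, and without it the change was -0.65 with an adjusted p of 0.00607 by limma. With only the 2 groups in the fit, Smad3 missed the threshold (limma adjusted p = 0.0832). In WM cells at 6 hr, Smad3 was at 9.09, 11.9, 12 and 10.7 FPKM and overlapped the 0 hr values, with a log2 difference of -0.13 (95% interval -0.70 to 0.44). The difference between these responses was 0.85 (95% interval 0.04 to 1.67, limma adjusted p = 0.678), and 0.52 without that library.
Smad7, which the TGF-beta signal induces in many cells, was at 16.2, 8.25, 17.1, 11.7 and 15.4 FPKM in control microglia at 6 hr, below all 0 hr controls. It fell by 0.80 (SE 0.19, limma adjusted p = 0.00168), and by 0.64 without replicate 2 (limma adjusted p = 0.00378). In WM cells at 6 hr it was at 16.4, 17.7, 18 and 27.7 FPKM, with a log2 difference of -0.45 from 0 hr and an adjusted p of 0.0597 by limma. Replicate 4 held the highest value, and without it the difference was -0.61 with an adjusted p of 0.0127. With all libraries kept, Smad7 passed in WM cells under quantile normalization (limma adjusted p = 0.0485). It also passed there with only the compared groups (limma adjusted p = 0.041) and by voom (limma adjusted p = 0.0437). The difference between the responses of Smad7 was 0.35 (95% interval -0.20 to 0.90, limma adjusted p = 0.807).

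Smad2, Smad4 and Ski did not pass at 6 hr in either kind of cells. Smad2 was at 4.82 to 8.94 FPKM in control microglia and at 4.96 to 6.25 FPKM in WM cells. Smad4 had differences of 0.47 and 0.45 with intervals that included 0. Ski, at 25.5 to 50.3 FPKM in control microglia and 36.7 to 52.8 FPKM in WM cells, had differences of -0.18 and 0.11. Without control replicate 2 at 6 hr, the differences in control microglia were 0.34 for Smad4 and -0.03 for Ski, and neither passed. Tgfb2, below the expression limit and not tested, was at 0.396 to 1.23 FPKM in control microglia at 6 hr, against 0.0922 to 0.396 FPKM at 0 hr, while in WM cells it was at 0.273 to 0.588 FPKM at 6 hr and 0.598 to 0.734 FPKM at 0 hr. Choroid plexus markers (4 of 4 listed) summed to 73.9 to 217 FPKM in control microglia and 280 to 715 FPKM in WM cells at 0 hr, 95.4 to 1356 and 157 to 599 FPKM at 6 hr, and 35.3 to 51.8 and 10.5 to 32 FPKM at 24 hr, and their part in the Tgfb2 values was not tested.

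At 24 hr after LPS, Tgfbr1 was the 1 member that passed against 0 hr, lower in both kinds of cells. Tgfbr1 was at 42.8, 49.8, 55.4 and 74.0 FPKM in control microglia and at 58.1, 74.1, 55.8 and 68.1 FPKM in WM cells. None of these 8 libraries reached the lowest value at 0 hr. The log2 change was -0.83 in control microglia (SE 0.17, limma adjusted p = 0.000996) and -0.47 in WM cells (SE 0.15, limma adjusted p = 0.0343). The call in WM cells was lost when WM replicate 1 or 3 at 0 hr or WM replicate 1 or 3 at 24 hr was left out, with adjusted p of 0.0646 to 0.111 by limma.
The difference between the responses was 0.35 (95% interval -0.12 to 0.82, limma adjusted p = 0.69). Of all genes, 9.23% were lower and 12.1% higher in control microglia at 24 hr, and 8.29% lower and 10.5% higher in WM cells. Tgfbr2 was at 47.9 to 67.8 FPKM in WM cells at 24 hr, all below the 70.2 to 85.3 FPKM at 0 hr, with a log2 difference of -0.31 that missed the threshold (limma adjusted p = 0.12). In control microglia it was at 50.8 to 61.1 FPKM and overlapped the 0 hr values, with a difference of -0.14. In control microglia, Smad7, Ski and Smad3 had log2 differences of -0.53, -0.49 and -0.72 at 24 hr with adjusted p of 0.0649, 0.0622 and 0.0895 by limma. With only the 2 groups in the fit, Smad3 and Ski passed in control microglia (limma adjusted p = 0.0148 and 0.0486), and Ski also passed with libraries at the same median (limma adjusted p = 0.047). In WM cells Smad7, Ski and Smad3 differed by -0.04, 0.13 and -0.14. Monocyte markers (4 of 4 listed) summed to 74 to 207 FPKM at 0 hr and 301 to 413 FPKM at 24 hr in control microglia. Sums of astrocyte markers were there at 55.6 to 61.6 and 39 to 43.6 FPKM, of oligodendrocyte markers at 31.7 to 39.5 and 10.7 to 27.3 FPKM and of choroid plexus markers at 73.9 to 217 and 35.3 to 51.8 FPKM. In WM cells, markers of border-associated macrophages summed to 17.8 to 27.6 FPKM at 0 hr and 9.32 to 18.2 FPKM at 24 hr, and choroid plexus markers to 280 to 715 and 10.5 to 32 FPKM. Those of oligodendrocyte precursors (3 of 4 listed) were at 0.295 to 0.482 and 0.796 to 1.26 FPKM in WM cells. The part of these cells in the 24 hr values was not tested.

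**Figure D3:**
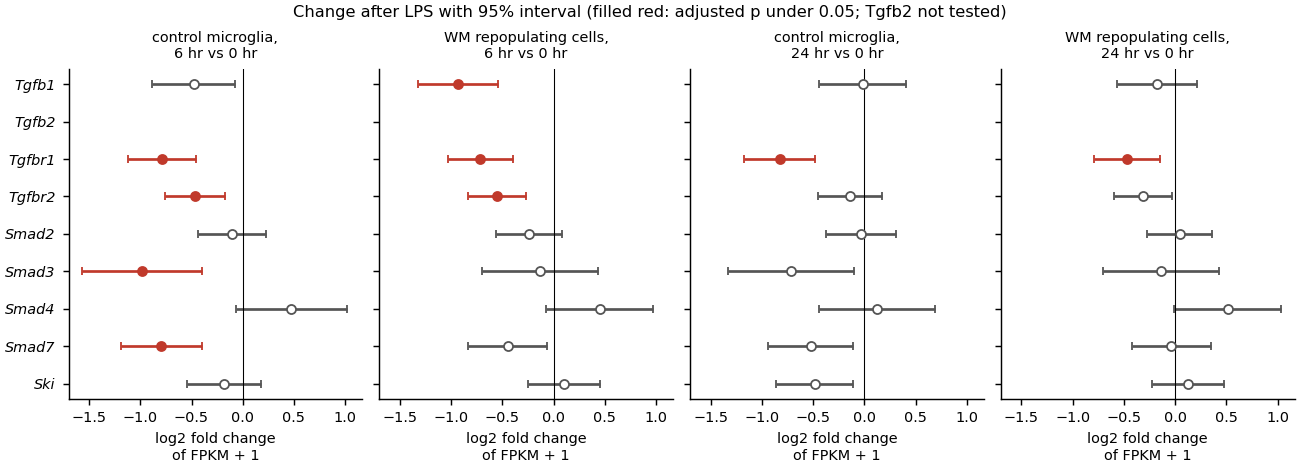
Log2 fold change of FPKM + 1 after LPS (horizontal axes) for the 8 tested members in control microglia and WM repopulating cells at 6 and 24 hr against 0 hr, with points for the limma estimate and lines for its 95% interval. Filled red points passed at an adjusted p under 0.05, and Tgfbr1 is red in all 4 panels.

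Between 6 and 24 hr, Tgfb1 rose in WM cells. It was at 4.92, 4.85, 7.29 and 6.55 FPKM at 24 hr, above all 4 values at 6 hr, and rose by 0.76 on the log2 scale (SE 0.19, limma adjusted p = 0.00771), in a comparison where 8.19% of all genes rose and 7.5% fell. Monocyte markers in WM cells summed to 1075 to 2825 FPKM at 6 hr and 93.7 to 468 FPKM at 24 hr and choroid plexus markers to 157 to 599 and 10.5 to 32 FPKM. Those of oligodendrocyte precursors (3 of 4 listed) were at 1.48 to 4.28 and 0.796 to 1.26 FPKM. Mural cell markers (3 of 4 listed) were at 1.25 to 3.19 and 0.253 to 0.763 FPKM, and the ependymal marker (1 of 4 listed) at 0.796 to 3.67 and 0 to 0.268 FPKM. The part of these cells in the Tgfb1 values was not tested. The difference of Tgfb1 between 24 hr and 0 hr was -0.17 (95% interval -0.57 to 0.22). In control microglia, Tgfb1 was at 5.24, 5.57, 5.73 and 5.24 FPKM at 24 hr, with a difference of 0.46 from 6 hr (limma adjusted p = 0.0586). No member of the 8 passed between 24 and 6 hr in control microglia, where 15% of all genes rose and 13.3% fell. Without control replicate 2 at 6 hr, 3 members passed there: Tgfb1 and Tgfbr2, higher by 0.60 and 0.38, and Ski, with a change of -0.46. In control microglia, sums at 6 and 24 hr were at 752 to 4659 and 5579 to 14566 FPKM for neutrophil markers, 897 to 2165 and 301 to 413 FPKM for monocyte markers and 10.4 to 22.3 and 32.7 to 39.8 FPKM for those of border-associated macrophages. Astrocyte markers were at 56.5 to 76.8 and 39 to 43.6 FPKM and choroid plexus markers at 95.4 to 1356 and 35.3 to 51.8 FPKM, and the part of these cells was not tested. Without WM replicate 4 at 6 hr, Smad7 passed in WM cells as well, higher by 0.57 at 24 hr (limma adjusted p = 0.0415).

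WM repopulating cells and control microglia were next set against each other at the same time after LPS. At 6 hr no member passed, where 0.213% of all genes were higher and 0.11% lower in WM cells. Smad7 was nearest, with a log2 difference of 0.52 (SE 0.18, limma adjusted p = 0.269), and 0.36 without control replicate 2. At 24 hr, Smad7 was the 1 member of 8 that passed, higher in WM cells, where 1.68% of all genes were higher and 2.29% lower. Smad7 was at 16.3, 14.3, 19.2 and 15.6 FPKM in control microglia and at 25.3, 23.6, 27.4 and 29.1 FPKM in WM cells. The groups did not overlap, and the log2 difference was 0.66 (SE 0.19, limma adjusted p = 0.045). The value of p is close to the threshold, and the call was lost under 5 other processing choices with adjusted p of 0.0518 to 0.0647, and on leaving out any single library of these groups but control replicate 3, with adjusted p of 0.0694 to 0.112, while the log2 difference lay between 0.60 and 0.74 over all settings.
Ski was at 29.5, 31.4, 35.4 and 30.4 FPKM in control microglia at 24 hr and at 39.9, 55.8, 38.0 and 53.5 FPKM in WM cells. These groups did not overlap either, with a log2 difference of 0.53 (SE 0.17) and an adjusted p of 0.0808 by limma. Groups without overlap made up 12.1% of all tested genes at 24 hr, beside 2 of the 8 members. Neutrophil markers moved with these groups, at sums of 5579 to 14566 FPKM in control microglia and 2660 to 5336 FPKM in WM cells at 24 hr. Markers of border-associated macrophages did so too, at 32.7 to 39.8 and 9.32 to 18.2 FPKM, as did those of the choroid plexus, at 35.3 to 51.8 and 10.5 to 32 FPKM, and of neuroblasts (3 of 4 listed), at 3.52 to 7.09 and 1.35 to 1.95 FPKM. The part of these cells in the Smad7 and Ski values was not tested. Whether the responses to LPS differed between the kinds of cells was tested in the same fit, and no member passed at 6 hr (0.0237% of all genes did) or 24 hr (0.0867%). At 24 hr the difference between the responses of Ski was 0.62 (95% interval 0.10 to 1.13, limma adjusted p = 0.471).

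**Figure D4:**
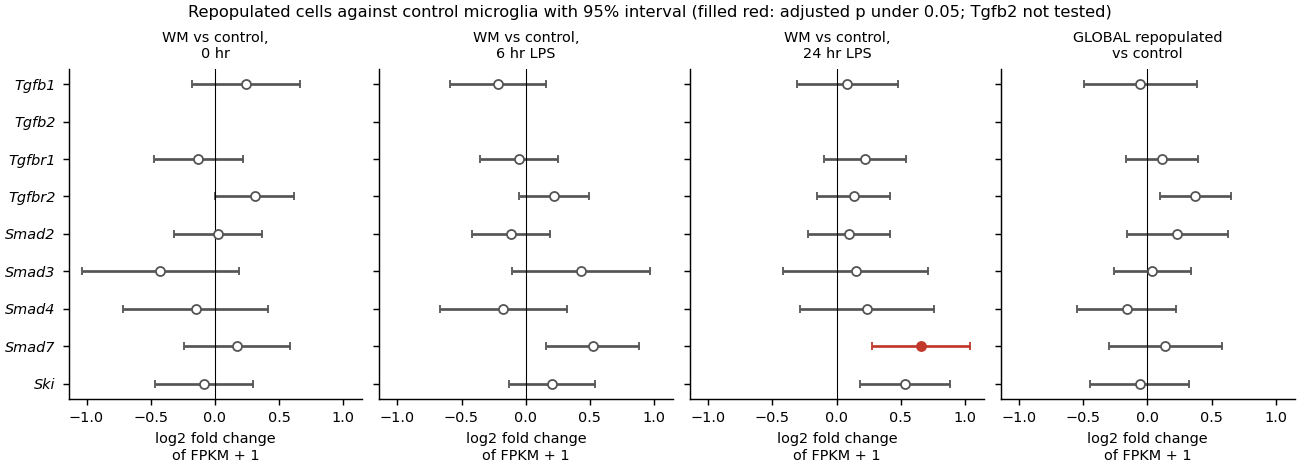
Log2 fold change of FPKM + 1 (horizontal axes) of WM repopulating cells against control microglia at 0, 6 and 24 hr, and of GLOBAL repopulated cells against their controls, for the 8 tested members with limma 95% intervals. The filled red point, Smad7 at 24 hr with a log2 difference of 0.66, is the single call among the 4 panels.

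The rest of the pathway is described by lists. Of 15 tested genes that TGF-beta induces in many cells, 5 were higher in WM cells than in control microglia at 24 hr and none lower, with a median log2 difference of 0.57 beside 0.03 over all genes, where 1.68% of all genes were higher and 2.29% lower. The neutrophil, border-associated macrophage, choroid plexus and neuroblast markers that separated these groups at 24 hr, given above, stand beside this list too, and their part in it was not tested. The largest were Fn1, which encodes the matrix protein fibronectin (1.86), Junb, a subunit of the AP-1 factor (1.42), and Tgif1, a corepressor of Smads (0.96). Of the 20 regulators of receptors and Smads, Tgif1 was the 1 that passed. Of the 13 TGF-beta-dependent microglial genes, Fcrls, an Fc receptor-like gene of microglia, differed by -1.13 and no other passed. At 0 and 6 hr, none of the 15 induced genes passed.

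After LPS, nearly all of the TGF-beta-dependent microglial genes fell. At 6 hr, 12 of 13 were lower in control microglia and 12 of 13 in WM cells, with median log2 changes of -1.85 and -1.50. At 24 hr, 11 and 12 were lower, with medians of -0.98 and -0.97, where 9.23% and 8.29% of all genes were lower. Gpr34, a lysophospholipid receptor of microglia, changed by -4.45 in control microglia and -3.58 in WM cells at 6 hr, and P2ry12 by -3.45 and -2.71. The genes that TGF-beta induces in many cells did not move one way. In control microglia at 6 hr, 7 of 15 rose and 2 fell, and in WM cells 7 rose and 6 fell. Cdkn1a, a cell cycle inhibitor, rose by 2.26 and 1.72, and Tgfbi, a matrix protein named for its induction by TGF-beta, rose by 2.15 in control microglia. Id2, an inhibitor of helix-loop-helix factors, rose by 1.99 there and by 1.39 in WM cells. In WM cells at 6 hr, Fn1 rose by 2.14. Pmepa1, which sequesters Smads and dampens the signal, fell by 1.56 in control microglia, where it was the regulator with the largest fall, while the regulator Dab2, an adaptor of endocytosis, rose by 2.19 there and by 3.12 in WM cells. At 24 hr, 5 of the 15 induced genes rose and 3 fell in control microglia, where 12.1% of all genes rose and 9.23% fell, and 6 rose and none fell in WM cells, where 10.5% rose and 8.29% fell.
Among the lists for activation of the ligand, Thbs1, a matrix protein that releases latent TGF-beta, rose by 2.72 in control microglia and 2.12 in WM cells at 6 hr, and Furin, a protease that cuts the TGF-beta precursor, rose by 1.03 and 1.08. These were the 2 of 5 tested genes that passed in each. Of the 9 tested co-receptors and related receptors, 3 fell and 1 rose in control microglia and 3 fell in WM cells. Eng, the co-receptor endoglin, changed by -1.20 and -1.85 at 6 hr and by -1.47 and -1.79 at 24 hr in control microglia and WM cells. Mapk14, the p38 kinase of the Smad-independent branch, was the 1 of 6 kinases to pass at 6 hr, with changes of -1.25 and -1.33. Of the 7 tested Smad partner factors, 1 rose and none fell in control microglia, and 2 rose and 1 fell in WM cells. Runx1, a partner of Smads in blood cells, rose by 1.17 and 0.98, and in WM cells the related Runx3 rose by 0.72 and Rbl1, a protein of the retinoblastoma family, fell by 0.64. None of the other Smads passed (3 tested). The 6 hr shares stand beside the 42.5% and 38.8% of all genes called in control microglia and WM cells, and 2 of 5 or 3 to 4 of 9 is near that background.

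The ratio of the receptor transcripts shows how the pair shifted within a library. In control microglia at 0 hr, Tgfbr2 was at 0.579, 0.532 and 0.786 times the FPKM of Tgfbr1, and in WM cells at 0.817, 0.915, 0.814 and 0.852 times. The WM values were all above the controls. After LPS the ratio lay at 0.653 to 0.938 in control microglia and 0.703 to 1.44 in WM cells at 6 hr, and at 0.714 to 1.30 and 0.647 to 1.17 at 24 hr, and the groups overlapped at both times. In the SVZ, the ratio was 1.36 ± 0.348 in controls, 1.92 ± 0.377 after PLX3397 and 1.89 ± 0.741 after recovery (SD, n = 5 each). The ratio of the inhibitor Smad7 to Smad3 was 1.20 to 1.77 in control microglia and 2.08 to 2.41 in WM cells at 0 hr, 1.11 to 3.31 and 1.48 to 2.59 at 6 hr, and 1.57 to 1.93 and 1.90 to 2.69 at 24 hr. The groups were apart at 0 hr and overlapped at 6 and 24 hr. The ratio of Tgfb2 to Tgfb1 was at or below 0.255 in every library of the LPS experiment and at or below 0.0153 in the GLOBAL experiment. No test was made of the ratios, and how often ratios of other gene pairs separate was not computed. Single genes separated in 13.6% of all tested genes at 0 hr and in 9.96% in the GLOBAL experiment.

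**Figure D5:**
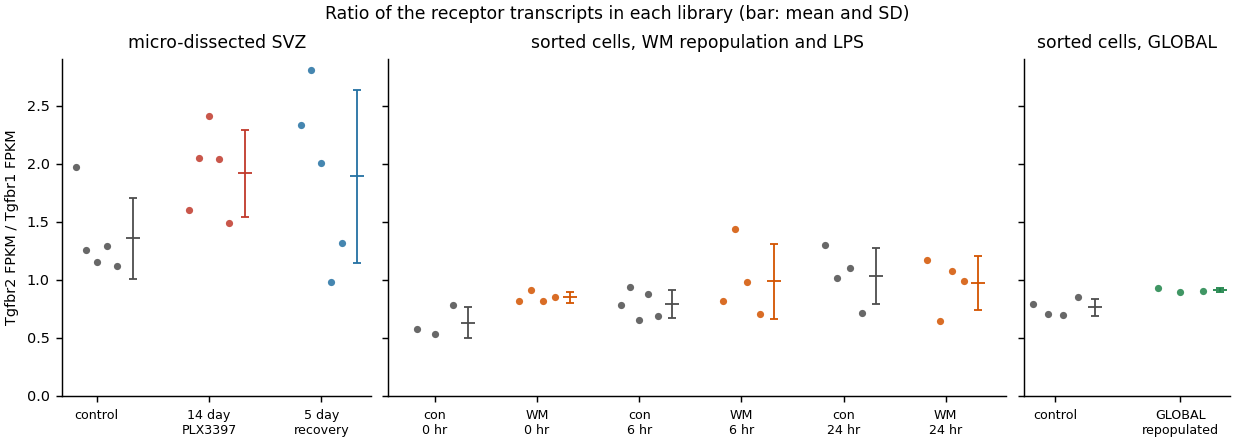
Tgfbr2 FPKM divided by Tgfbr1 FPKM (vertical axis, from 0, shared) in each library of the SVZ, LPS and GLOBAL experiments, with bars for mean and SD. The 4 WM libraries at 0 hr sit at 0.814 to 0.915, above the 3 controls, and the 3 GLOBAL repopulated libraries at 0.898 to 0.930, above their 4 controls.

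In the GLOBAL experiment, repopulated cells were compared with control microglia after 28 days of recovery. No member of the 8 tested passed, nor did any of the 16651 tested genes (0%) in limma, which gave 1504 genes at an unadjusted p under 0.05. By voom on recovered reads, 24 genes and none of the members passed. Tgfbr2 was at 106, 93.2, 113 and 113 FPKM in controls and at 143, 139 and 131 FPKM in repopulated cells. The groups did not overlap, and the log2 difference was 0.37 (SE 0.13, 95% interval 0.10 to 0.65, limma adjusted p = 0.449). Groups without overlap made up 9.96% of all tested genes, beside 1 of the 8 members. Neutrophil markers summed to 18384, 11456, 2126 and 1502 FPKM in the controls and 1024 to 3671 FPKM in repopulated cells, and markers of border-associated macrophages to 23.4 to 32.1 and 13.7 to 17 FPKM. Astrocyte markers (6 of 6 listed) were at 30.2 to 32 and 24.1 to 28.6 FPKM. The part of these cells in the Tgfbr2 values was not tested.
Tgfbr1 was at 134, 133, 161 and 133 FPKM in controls and 153, 155 and 146 FPKM in repopulated cells, with a log2 difference of 0.12 (95% interval -0.16 to 0.39). The ratio of Tgfbr2 to Tgfbr1 was 0.793, 0.702, 0.701 and 0.852 in controls and 0.930, 0.898 and 0.901 in repopulated cells, again without overlap. Tgfb1 was at 54.3, 53.5, 52.6 and 88.4 FPKM in controls and at 69.8, 55.0 and 51.7 FPKM in repopulated cells, and Smad7 at 17.2, 18.4, 16.7 and 27.9 FPKM and 24.9, 17.9 and 22.9 FPKM. Control replicate 4 held the highest value of both. Smad3 was at 27.6, 29.6, 29.8 and 30.9 FPKM and 29.7, 27.1 and 34.5 FPKM, and its 95% interval ran from -0.26 to 0.34. Smad2 and Smad4 had differences of 0.23 and -0.16, and Ski, at 38.2 to 65.3 FPKM in controls and 48.5 to 53.2 FPKM in repopulated cells, one of -0.06. Tgfb2 was at 0.131 to 0.804 FPKM, on 3 to 10 reads per library, and was not tested. None of the 8 pathway lists held a gene that passed, and the 15 genes induced by TGF-beta in many cells had a median log2 difference of 0.25 beside 0.01 over all genes.

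The genes whose pattern was most like each member across the 24 libraries of the LPS experiment were found by Pearson correlation on log2(FPKM + 1), given as a description since the libraries share 6 groups. Tgfbr1 was most like Per3, a gene of the circadian clock (r = 0.914), Cask (0.890) and Chmp1b (0.878). Tgfbr2 was most like Epb41l2 (0.878), Tmem173, which encodes the DNA-sensing adaptor STING (0.865), and Man2b1 (0.862). Smad7 was most like Trim8 (0.928), Pnrc1 (0.921) and Hmha1 (0.915), and Smad3 most like Tmem100 (0.910), Zfyve21 (0.892) and Csnk1e (0.889). Tgfb1 was most like Rbl2 (0.877), Col27a1 (0.866) and Rapgef6 (0.853), and the genes nearest to Ski included Mepce (0.828) and Tle3 (0.808). Smad2 and Smad4 reached 0.820 with Tifa and 0.768 with Papd5. Among the members themselves, the highest r was 0.696, between Smad3 and Smad7, and Tgfbr1 and Tgfbr2 reached 0.499. No member was thus among the 3 nearest genes of another.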

How the data were processed

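RNA-seq of 46 libraries in 3 experiments was used. According to the methods, the authors aligned the reads with STAR, counted them per gene with featureCounts and normalized them with edgeR and limma. The labels describe another library protocol than the methods, and the role of each tool is as the methods give it. The authors deposited FPKM values in 1 table per experiment, each normalized separately, with Entrez IDs and symbols, and the paper calls the unit RPKM. Columns were assigned to samples by name, and no column of values lacked a sample. No pair of libraries held identical values.

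The members and gene lists were chosen with earlier results of these data known. All 9 members are named with values. Of each pathway list at most 3 genes per comparison are named, those with the largest log2 change among those that passed, and of the marker lists only genes a result turns on. For each member tested in the LPS experiment the 3 genes of highest correlation are named, except 1 gene that is not reported here.

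Genes at 1 FPKM or more in at least 3 libraries were tested, 14151 in the SVZ, 12684 in the LPS and 16651 in the GLOBAL experiment. limma 3.58.1 (R 4.3.3) was fitted to log2(FPKM + 1), with all groups of a table in 1 fit, eBayes with a variance trend and Benjamini-Hochberg adjustment over all tested genes. Tests were 2-sided, and an adjusted p under 0.05 was called. The fit was tested on simulated data. The paper counts n in mice and the labels name no animal for a library, and p-values measure the spread between the libraries.

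FPKM values were whole multiples of the value of 1 read for every gene seen in 2 or more libraries, within a relative tolerance of 2e-05 in the SVZ and 2e-08 in the other tables, which gave the reads per gene and library. These reads were used for depth and, in an alternative chosen after seeing the data, for voom. Alternatives were a pseudocount of 0.1, no expression limit, quantile normalization, libraries shifted to the same median, no variance trend, only the compared groups, a replicate block, leaving out each library, and voom. Summaries and plots were made in Python 3.11.15, using numpy 2.4.6, pandas 2.3.3 and matplotlib 3.10.9.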

Additional observations from a re-analysis of the deposited data

Results flagged for a closer look

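In 78 groups of 4 or 5 libraries, taken member by member, 7 held a library far from the others by Dixon's criterion, beside about 4 that chance gives at 1 in 20. Control SVZ replicate 1 held Tgfb2 at 16.9 FPKM against 3.4 to 4.27 FPKM in the other controls, and it is the library with choroid plexus markers at 21303 FPKM. Smad4 was at 6.57 FPKM in WM replicate 4 at 0 hr against 4.03 to 4.31 FPKM in the others, and at 6.48 FPKM in WM replicate 3 at 24 hr against 7.28 to 7.42 FPKM. Smad7 was at 27.7 FPKM in WM replicate 4 at 6 hr against 16.4 to 18 FPKM. In the GLOBAL controls, replicate 4 held Tgfb1 at 88.4 FPKM against 52.6 to 54.3 FPKM and Smad7 at 27.9 FPKM against 16.7 to 18.4 FPKM, and replicate 3 held Tgfbr1 at 161 FPKM against 133 to 134 FPKM. The causes were not tested. Control replicate 2 at 6 hr LPS, left out in some results above, held no flagged value.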

How the results depend on the processing

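Of 260 recomputed counts of members called, 233 stayed within 1.5 times the main count. In the SVZ after PLX3397, 2 members were called with only the compared groups in the fit. For WM cells against control microglia at 24 hr LPS, 0 were called with a pseudocount of 0.1, no expression limit, quantile normalization, libraries at the same median and no variance trend, and 0 to 1 without single libraries. For control microglia at 24 hr against 0 hr, 2 were called with libraries at the same median and 3 with only the compared groups, and for 24 hr against 6 hr 1 was called with no expression limit and 0 to 3 without single libraries. For WM cells at 24 hr against 0 hr, 2 were called with no expression limit and 0 to 1 without single libraries. Leaving out single libraries gave 1 to 2 in the SVZ after recovery and 1 to 2 for WM cells at 24 hr against 6 hr. With the replicate block, 2 were called for control microglia and 0 for WM cells at 24 hr against 0 hr. The deviations of same-numbered libraries correlated at -0.155 to 0.486 in the SVZ, -0.19 to 0.266 in the LPS and 0.0562 to 0.137 in the GLOBAL experiment, with values over 0.1 in 5 of 15, 7 of 55 and 2 of 3 pairs, so the numbers were not taken to pair them. The causes of these shifts were not tested. Of 2080 values of single members, 19 lost and 18 gained a call and none that was called changed its sign, while 74 that were never called did. Tgfb2 in sorted cells, at 2 to 37 reads, and the low receptors in the SVZ, at 32 to 166 reads for Tgfbr1, are limited by counting error.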
